A study of Mus musculus with 6 samples.

Results

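Marginal zone B cells and follicular B cells are the mature B cell types of the spleen, and 6 genes that mark the first type, Plac8, Cr2, Cd1d1, Mzb1, Asb2 and Myof, were followed here in sorted follicular B cells with and without myosin IIa. The 6 genes were chosen by name, with their levels in these same libraries already known, out of 20433 gene names with a value, and each has a single entry. All values below are therefore a description. RNA was sequenced from 6 samples of C57BL/6 mice, 3 from CD23Cre+Myh9wt/fl and 3 from CD23Cre+Myh9fl/fl animals. All carry the CD23Cre transgene, so Myh9 is lost on a single allele in wt/fl cells, which are haploinsufficient and not wild-type, and on both alleles in fl/fl cells. Cre is driven by the Fcer2 (CD23) promoter, so deletion starts in CD23-expressing transitional cells and B cells at earlier stages keep myosin IIa. The labels give no age. The sort took B220+AA4.1-CD23+ cells with low CD21. CD21 is the protein of Cr2, and marginal zone B cells, which are high in CD21 and low in CD23, lie outside that gate by design.

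The deposited values are FPKM, fragment counts scaled to transcript length and library size, which allow levels to be compared between genes. The authors pooled the 3 samples of a genotype into 1 value, so these values carry no spread between mice. No error or test is given here for any difference, since the columns of the authors' own comparison were not used, and the depth per sample is unknown. Differences are given as log2 of fl/fl over wt/fl after adding 1 FPKM to each, which understates the difference of low genes. A gene is counted as lower or higher where the genotypes differ by at least 1.5 fold on that scale, among the 9866 genes that averaged at least 1 FPKM. Of these, 151 (1.53%) were lower and 78 (0.791%) higher in fl/fl, and the median log2 ratio was 0.0026. Myh9 was at 50.6 FPKM in wt/fl against 21.1 FPKM in fl/fl, 41.7% of the haploinsufficient level. The deletion removes exon 3 and this value covers the whole gene, so it does not give how much intact Myh9 transcript was left. The B cell genes Cd79a (1098 and 1115 FPKM), Cd79b (1638 and 1739 FPKM) and Ms4a1 (373 and 379 FPKM) differed little and were high in both.

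Marginal zone B cells sit at the border of white and red pulp, where they meet blood-borne antigen. They need Notch2 signals to form, and they differ from follicular B cells by high complement receptor and CD1d on the surface and by a program that readies them for rapid antibody secretion. Plac8 encodes a small cysteine-rich protein, also abundant in myeloid cells. Cr2 encodes the complement receptors CD21 and CD35, and Cd1d1 the molecule that presents lipids to natural killer T cells. Mzb1 encodes a chaperone of the endoplasmic reticulum that assists immunoglobulin folding and secretion. Asb2 encodes the substrate-binding subunit of an E3 ubiquitin ligase whose targets include filamins, and Myof encodes myoferlin, a ferlin of the plasma membrane that takes part in membrane repair.

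Promoter sequence shows how the highly expressed Plac8 and Cr2 differ at their starts. RefSeq (GRCm38.p6) gives 6 promoters for 4 of the 6 genes, Plac8, Cr2, Asb2 and Myof, and the 250 bases before each start were searched on both strands. The motifs compared first were TGGGAA, the core bound by RBPJ (the DNA-binding partner of Notch), and CCACCC, a core bound by KLF factors. TGGGAA occurs in 21.6% and CCACCC in 28.1% of all 32851 such promoter windows of the table. Capitals mark these motifs on either strand. GAGGAA, a core bound by PU.1, and TATAAA, the TATA box, were also searched, and occur in 23.3% and 12.4% of the windows. In Cr2 the motifs overlap, since GGGTGG, the other strand of CCACCC, runs into TGGGAA. The upstream promoter of Plac8 lies at chr5:100572206-100572455 on the minus strand, and that of Cr2 at chr1:195176720-195176969 on the minus strand.
Plac8: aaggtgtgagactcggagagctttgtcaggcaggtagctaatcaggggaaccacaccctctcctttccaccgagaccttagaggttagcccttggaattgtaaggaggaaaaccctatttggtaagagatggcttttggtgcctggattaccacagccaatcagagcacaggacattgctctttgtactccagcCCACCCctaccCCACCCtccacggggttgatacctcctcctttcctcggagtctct
Cr2: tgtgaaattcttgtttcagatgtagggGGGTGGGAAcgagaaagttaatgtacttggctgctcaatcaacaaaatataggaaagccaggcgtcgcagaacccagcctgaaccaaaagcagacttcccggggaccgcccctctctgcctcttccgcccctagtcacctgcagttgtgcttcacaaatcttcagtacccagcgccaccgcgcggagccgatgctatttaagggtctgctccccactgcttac
Plac8 has 2 CCACCC matches and no TGGGAA match in this window, whereas Cr2 has 1 of each. The second promoter of Plac8, the first promoter of Asb2 and the promoter of Myof hold neither motif, and the second promoter of Asb2 holds 1 CCACCC match. GAGGAA has 2 matches in the printed Plac8 window, 1 in the second promoter of Asb2 and 0 in the other windows, and TATAAA has 0 in all 6. A match describes letters only, since no binding was measured.

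Plac8 showed the largest difference of the 6 genes. Its entry, on chromosome 5 from 100982751 to 101001224 (mm9), had 138 FPKM in wt/fl against 82.1 FPKM in fl/fl, so the haploinsufficient cells held more. The fl/fl level was 59.7% of the wt/fl level, a log2 ratio of −0.74. Plac8 was the only member past 1.5 fold, 1 of the 5 members with a mean of at least 1 FPKM, beside a background of 1.53% of genes that were lower, and since the gene was chosen with this value known nothing is read from that count. Of the 9866 genes, 80 had a lower ratio and 544 a higher mean. On 2-fold as the limit Plac8 was not past it.

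Mzb1 was the most abundant member in wt/fl against also lower in fl/fl, short of 1.5 fold. The entry, on chromosome 18 from 35806918 to 35809021, was at 189 FPKM in wt/fl against 140 FPKM in fl/fl, which is 74.2% of the wt/fl level and a log2 ratio of −0.43. Of all 9866 genes, 309 had a lower ratio. In GENCODE M21, 75.7% of the 50-base words of the longest coding Mzb1 transcript also occur in a read-through transcript named SPATA24 on the same strand, so many fragments of the gene could also be counted to the read-through, whereas the other words occur in no other gene.

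Cr2 went the other way. The entry, on chromosome 1 from 196963004 to 197002909, was at 177 FPKM in wt/fl against 198 FPKM in fl/fl, 112% of the wt/fl level and a log2 ratio of 0.16. Its level was high although CD21-high cells were left out by the gate, and because the gate acted on its protein the Cr2 level is no finding about the cells. None of its 50-base words occurs in another gene, Cr1l included, the neighbouring complement regulator gene, whose entry begins 5.24 kb away. Cr1l was at 81.1 and 95.1 FPKM, and the ratio of Cr2 to Cr1l was 2.19 in wt/fl against 2.09 in fl/fl.

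Cd1d1 had the ratio closest to 0. The entry, on chromosome 3 from 86799757 to 86803262, was at 15.1 FPKM in wt/fl against 15.7 FPKM in fl/fl, a log2 ratio of 0.06. Its near copy Cd1d2, which RefSeq lists as a transcribed pseudogene, was at 0.132 and 0.0795 FPKM. The aligned coding bases of both are 96.7% identical in GENCODE M21, and 25.8% of the 50-base words of Cd1d1 are shared with Cd1d2, so some fragments could be split between them. The 60 coding bases within an exon that differ most are shown, with the 8 differences in capitals, from exon 3 of each at chr3:86998226-86998285 (minus strand) and chr3:86987608-86987667 (plus strand) of GRCm38.
Cd1d1: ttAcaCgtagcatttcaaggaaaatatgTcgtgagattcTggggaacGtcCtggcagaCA
Cd1d2: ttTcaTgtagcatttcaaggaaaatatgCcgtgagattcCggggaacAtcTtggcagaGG
A fragment that covers such a stretch can be placed on the correct copy, whereas fragments from identical stretches cannot.

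Myof and Asb2 were low. Myof, on chromosome 19 from 37973525 to 38118067, was at 4.08 FPKM in wt/fl against 3.62 FPKM in fl/fl, a log2 ratio of −0.14. Asb2, on chromosome 12 from 104559351 to 104594211, was at 0.676 FPKM in wt/fl against 0.411 FPKM in fl/fl. That is 60.8% of the wt/fl level, about the share seen for Plac8, but with 1 FPKM added the log2 ratio was −0.25, and with 0.1 FPKM added it was −0.60. Averaging under 1 FPKM, Asb2 falls outside the 9866 genes. At the length of the longest coding transcript, its FPKM times kilobases give 1.82 and 1.11 library-scaled fragments, against 168 and 100.4 for Plac8 and 171 and 127 for Mzb1. The long transcript of Myof (7094 bases, 53 exons) gives it 29.0 and 25.7 library-scaled fragments at its low FPKM. The Asb2 values thus rest on far fewer fragments than those of the other members.

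**Figure D1:**
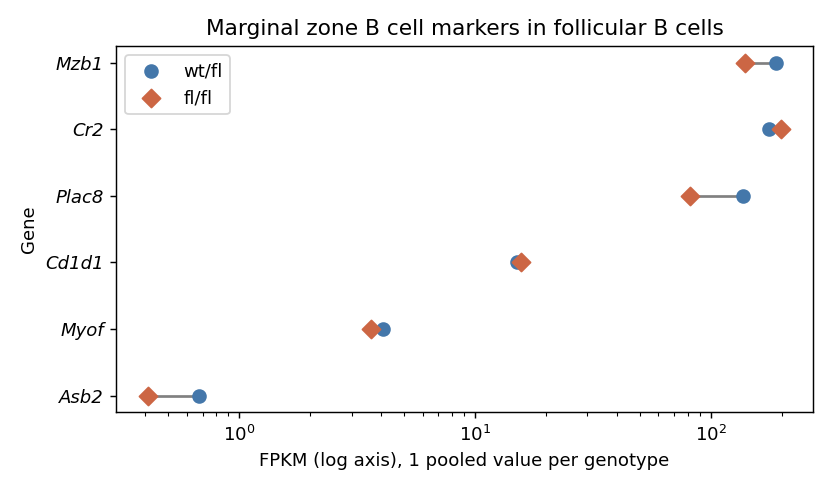
FPKM of the 6 marginal zone markers on a log axis, with a circle for the pooled wt/fl value and a diamond for the pooled fl/fl value of each gene. Plac8 (138 and 82.1 FPKM), Mzb1 (189 and 140) and Asb2 (0.676 and 0.411) have the diamond clearly to the left, whereas Cr2 and Cd1d1 have it slightly to the right.

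The order of the levels in wt/fl was Mzb1, Cr2, Plac8, Cd1d1, Myof and Asb2, and in fl/fl Cr2 came before Mzb1. Without a spread between samples, neither the order of Mzb1 and Cr2 in wt/fl nor its exchange can be tested. Relative to Cr2, Plac8 was at 0.776 in wt/fl against 0.413 in fl/fl, and Mzb1 at 1.07 and 0.707. Of the 6 markers, 4 had a log2 ratio below 0 and 2 above it, with a median of −0.19, beside 4880 of the 9866 genes below 0. Those above it were Cd1d1 (0.06) and Cr2 (0.16), and the gate acted on the protein of Cr2. Whether the markers moved together was not tested.

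**Figure D2:**
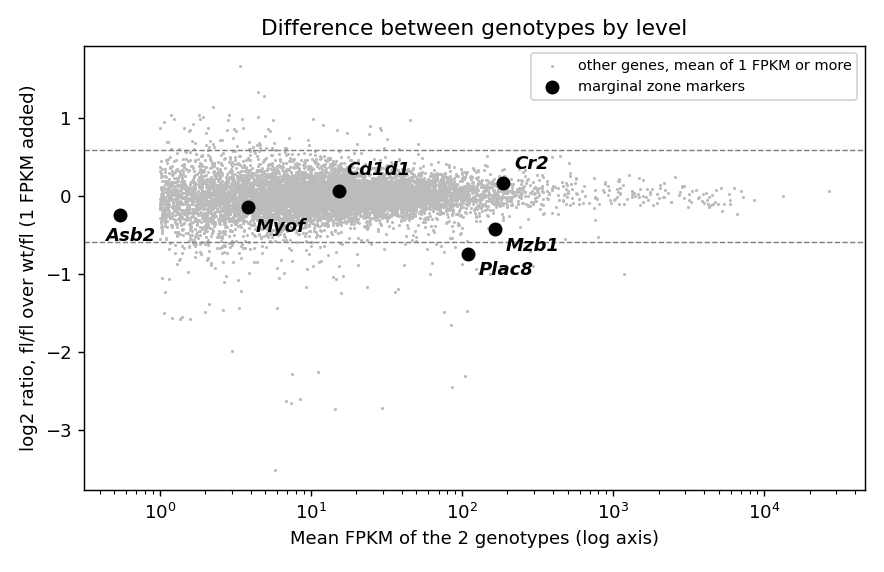
Log2 ratio of fl/fl over wt/fl (1 FPKM added) against the mean FPKM of the genotypes on a log axis, with a grey point for each gene with a mean of 1 FPKM or more, black points for the 6 markers and dashed lines at 1.5 fold. Plac8 at −0.74 lies below the lower line, Mzb1 at −0.43 lies at the edge of the grey cloud for its level, and the other markers lie within the cloud or, for Asb2, left of it.

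The 5 genes closest to Plac8 in mean level and ratio, by distance on the log2 scale over the 9866 genes, were Hspd1, Dnaja1, Gpr171, St13 and Sla. Hspd1 (129 and 86.1 FPKM, log2 ratio −0.58) and Dnaja1 (130.04 and 70.9, −0.87) encode chaperones, and St13 (110.3 and 69.9, −0.65) a co-chaperone. Gpr171 (163 and 84.8, −0.94) encodes a G protein-coupled receptor, and Sla (115 and 82.9, −0.47) an adaptor of antigen receptor signaling. This likeness rests on 2 pooled values per gene.

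Another 12 genes linked to marginal zone B cells were set beside the members, 9 of them with a mean of at least 1 FPKM. Fcrl5, an Fc receptor-like protein, was lower in fl/fl (12.8 and 6.20 FPKM, log2 ratio −0.94), and so was the tetraspanin gene Cd9 (4.61 and 2.52 FPKM, −0.67). These were the 2 genes of the 9 past 1.5 fold, with 0 higher, beside 1.53% lower and 0.791% higher among all genes. Of the 9, 6 had a log2 ratio below 0 and 3 above it, and their median was −0.16 against 0.0026 for all genes. S1pr1, the sphingosine-1-phosphate receptor that holds cells in the marginal zone, was at 98.0 and 75.2 FPKM (−0.38), and Notch2 at 79.7 and 73.5 FPKM (−0.12). Dtx1, a Notch target, was at 27.3 and 20.6 FPKM (−0.39). The scavenger receptor gene Cd36 (7.82 and 8.27 FPKM) and S1pr3 (2.35 and 2.83 FPKM), markers of the same cells, had log2 ratios of 0.07 and 0.19. Ratios above 0 in this list reached at most 0.19, whereas those below 0 reached −0.94. Without a spread between samples, ratios this close to 0 cannot be read as a direction. In bulk RNA, fewer marginal zone-type cells in the fl/fl samples and less RNA of these genes per cell cannot be told apart.

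Summed per gene, the genes that the sort acted on were all somewhat higher in fl/fl. Fcer2a, which encodes CD23, was at 439 FPKM in wt/fl against 588 in fl/fl, summed over its 7 entries (log2 ratio 0.42). Ptprc (B220), summed over its 3 entries, was at 467 and 575 FPKM (0.30). Its entries differed in direction, at 329 and 405 FPKM (0.30), 102 and 77.7 FPKM (−0.38) and 35.6 and 92.3 FPKM (1.35). Cd93 (AA4.1) was at 3.28 and 4.23 FPKM (0.29). None of these genes was past 1.5 fold as a sum, and genes used to sort the cells are no finding between them. Among 8 genes typical of follicular B cells, 0 were past 1.5 fold in either direction, and their median was −0.09. Of the 8, 6 had a log2 ratio below 0 and 2 above it, from −0.31 (Ccr7, 146 and 118 FPKM) to 0.42 (Fcer2a). Among them, Cxcr5, which encodes the receptor for CXCL13, was at 180 and 178 FPKM.

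Partners of the members were compared by role. Of the 7 listed genes around CD21, 6 averaged at least 1 FPKM. Among these, Cd81 (173 and 188 FPKM) encodes a tetraspanin of its co-receptor complex, and the complement regulator Cd55 was at 225 and 279 FPKM (log2 ratio 0.31). Only the low interferon-induced gene Ifitm1, whose protein also joins that complex, was past 1.5 fold (4.01 and 1.34 FPKM, −1.10). That is 1 of the 6, beside 1.53% of all genes that were lower. Of the 9 listed genes for CD1d assembly and lipid loading, 8 averaged at least 1 FPKM and 0 of these were past 1.5 fold, with a range from −0.17 to 0.14. The most abundant were Cd74 (7307 and 7237 FPKM), B2m (4531 and 4128 FPKM) and Calr (120 and 132 FPKM), which encode the invariant chain, the light chain of CD1d and calreticulin.

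Genes that act with Mzb1 in the endoplasmic reticulum stayed closer to 0 than Mzb1 itself. Its partner Hsp90b1, the chaperone GRP94, was at 423 and 363 FPKM (log2 ratio −0.22), Hspa5 (BiP) at 285 and 264 FPKM (−0.11) and Sec11c, a signal peptidase subunit, at 116 and 121 FPKM (0.06). All 8 of that list averaged at least 1 FPKM and 0 were past 1.5 fold, with a median of 0.02. The ratio of Mzb1 to Hsp90b1 was 0.447 in wt/fl against 0.387 in fl/fl. For the ligase of Asb2, all 12 listed genes averaged at least 1 FPKM and 0 were past 1.5 fold, with a range from −0.17 to 0.14. They include Tceb2 (elongin B, 200 and 197 FPKM), the filamin gene Flna (59.3 and 62.6 FPKM) and Rnf7, the RING subunit (44.7 and 47.7 FPKM). Among ferlins and the EHD and dynamin proteins of membrane traffic, 4 of 9 listed genes had a mean of at least 1 FPKM, and 0 of these were past 1.5 fold. They are Dnm2 (50.8 and 50.6 FPKM), Ehd4 (29.7 and 24.5), Ehd1 (23.6 and 26.1) and Ehd2 (4.23 and 4.26), whereas the ferlin genes Dysf and Otof were below 0.02 FPKM in both genotypes. Cebpb, a transcription factor gene linked to Plac8 in brown fat, was at 1.46 and 0.909 FPKM (−0.37), and the Plac8 relatives Plac8l1 and Cnfn were below 0.1 FPKM or at 0.

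**Figure D3:**
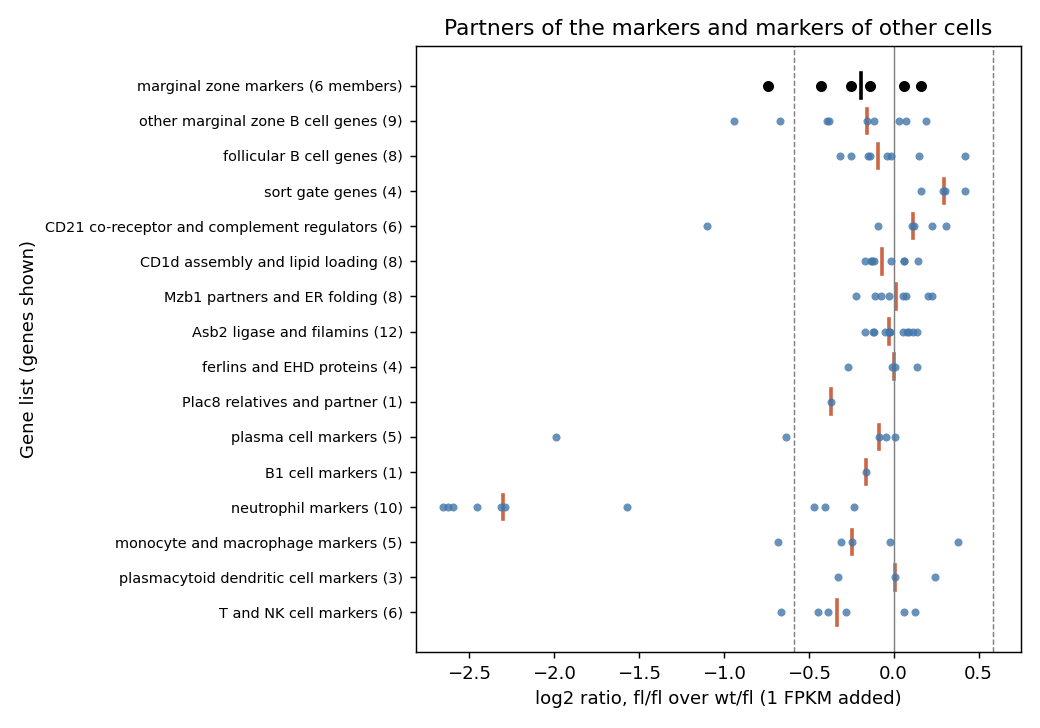
Log2 ratio of fl/fl over wt/fl (1 FPKM added) for the 6 markers (black) and for the genes of each list that averaged at least 1 FPKM (blue points), with a vertical bar at the median of each row, a line at 0 and dashed lines at 1.5 fold. The neutrophil markers lie farthest to the left (median −2.30), the lists of CD1d, endoplasmic reticulum and Asb2 ligase genes lie around 0, and the marginal zone rows spread to both sides of 0.

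Plac8 is also expressed by neutrophils and monocytes, which the sort on B220 and CD23 is meant to leave out. Neutrophil markers were lower in fl/fl, and those of monocytes and macrophages were mostly lower. Of 15 neutrophil markers, 10 had a mean of at least 1 FPKM, and all 10 had a log2 ratio below 0. The median of the 10 was −2.30, and 7 were past 1.5 fold, beside 1.53% of all genes that were lower. The summed level of the 15 was 389 FPKM in wt/fl against 74.7 FPKM in fl/fl, 19.2% of wt/fl, carried mostly by S100a9 (175 and 34.5 FPKM) and S100a8 (145 and 25.8 FPKM). The other 5 past 1.5 fold were Camp (15.3 and 1.70 FPKM), Ngp (13.4 and 1.29), Retnlg (13.0 and 1.88), Lcn2 (12.6 and 1.21) and Ltf (2.31 and 0.118). Short of 1.5 fold were Cxcr2 (5.99 and 4.96 FPKM, −0.23), Csf3r (2.32 and 1.51, −0.41) and Itgam (2.22 and 1.33, −0.47), so the markers did not differ evenly. The primary granule genes Elane (0.119 FPKM) and Mpo (0.0916 FPKM) were near 0 in wt/fl against listed at 0 in fl/fl, and Fcnb was at 0 in both. Of 10 monocyte and macrophage markers, 5 had a mean of at least 1 FPKM. Of these 5, 4 had a log2 ratio below 0 and 1 above it, with a median of −0.24. Only Lyz2 (72.6 and 44.9 FPKM, −0.68) was past 1.5 fold. The summed level of that list was 90.5 FPKM in wt/fl against 60.3 FPKM in fl/fl, with most of that difference in Lyz2. Cd68 was at 7.41 and 6.10 FPKM (−0.24), Ly6c2 at 3.56 and 2.68 FPKM (−0.31) and the defining gene Csf1r at 1.42 and 1.39 FPKM (−0.02). C1qb, a complement gene of macrophages, was the 1 above 0, at 1.61 and 2.39 FPKM (0.38). The part of such cells in the Plac8 values was not tested. Plasmacytoid dendritic cells express Plac8 as well, and of their markers Siglech was at 0.340 and 0.378 FPKM. The 6 listed markers of these cells summed to 36.9 FPKM in wt/fl against 31.5 FPKM in fl/fl, mostly from Bst2 (27.3 and 21.5 FPKM, −0.33), which B cells also express. The other 2 with a mean of at least 1 FPKM, Pacsin1 (7.35 and 7.41 FPKM, 0.01) and Ccr9 (1.57 and 2.05 FPKM, 0.24), had a log2 ratio above 0.

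Mzb1 is expressed at high level by plasma cells, most of which the sort on B220 and CD23 would also leave out. Of 7 plasma cell markers, 5 had a mean of at least 1 FPKM. Of these 5, 2 were past 1.5 fold, both lower, beside 1.53% of all genes that were lower. The count depends on the setting: 0 were lower with a mean of at least 5 FPKM, and 1 with a 2-fold limit. Igj, which encodes the J chain of secreted antibody, was at 5.40 FPKM in wt/fl against 0.617 FPKM in fl/fl (log2 ratio −1.98), and Sdc1, which encodes the plasma cell surface marker CD138, was at 2.30 and 1.13 FPKM (−0.63). The most abundant of the list, Irf4 (60.8 and 58.9 FPKM), Xbp1 (48.8 and 45.9 FPKM) and Ell2 (16.5 and 16.6 FPKM), are also expressed in B cells, and Tnfrsf17 was at 0 in both. The list summed to 135 FPKM in wt/fl against 124 FPKM in fl/fl. The part of plasma cells in the Mzb1 values was not tested.

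Of 9 T and NK cell markers, 6 had a mean of at least 1 FPKM. Of these 6, only Nkg7 was past 1.5 fold (9.01 and 5.33 FPKM, log2 ratio −0.66), beside 1.53% of all genes that were lower. Of the 6, 4 had a log2 ratio below 0 and 2 above it, with a median of −0.33. The 9 listed markers summed to 37.1 FPKM in wt/fl against 27.2 FPKM in fl/fl, with Gzma at 16.8 and 12.1 FPKM. Cd3d was at 3.02 and 2.31 FPKM (−0.28), Cd3g at 1.96 and 1.26 FPKM (−0.39) and Cd3e at 1.83 and 1.96 FPKM (0.06). Of the 3 B1 cell markers, Bhlhe41 (1.70 and 1.42 FPKM) had a mean of at least 1 FPKM, and the list summed to 2.96 and 2.65 FPKM.

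**Figure D4:**
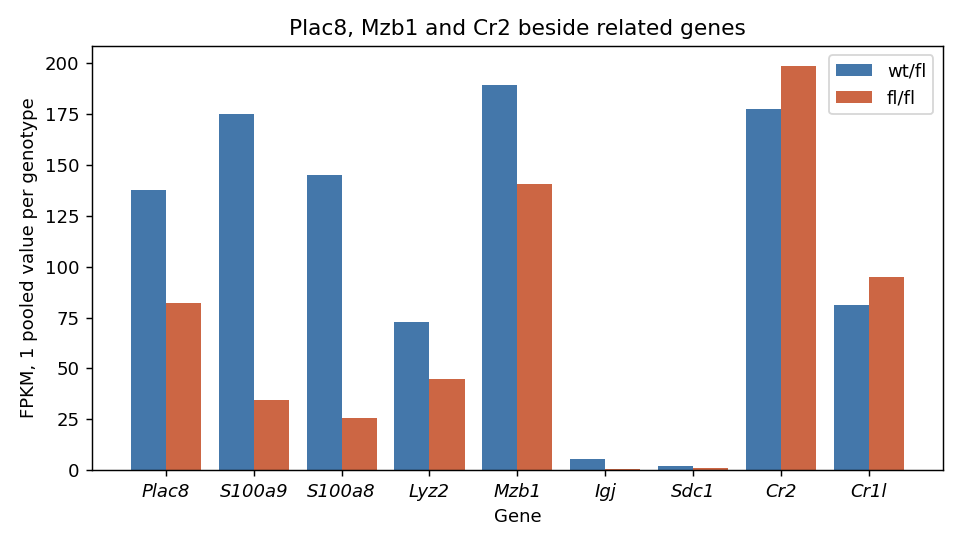
FPKM (1 pooled value per genotype) of Plac8, Mzb1 and Cr2 in wt/fl (blue bars) and fl/fl (orange bars), beside neutrophil genes S100a9 and S100a8, the myeloid gene Lyz2, the plasma cell genes Igj and Sdc1, and Cr1l, the neighbour of Cr2. S100a9 and S100a8 differ by more than Plac8, Igj and Sdc1 are small beside Mzb1, and Cr2 and Cr1l are the genes with the higher bar in fl/fl.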

How the data were processed

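RNA of follicular B cells was amplified and sequenced without strand information being stated. The submitters' processing notes name Bowtie, TopHat and Cufflinks with no versions, and the builds mm10 and GRCm38. Positions in the file differ from those builds: within 1000 bases at both ends, 3.69% of 18793 genes lie where RefSeq puts them on GRCm38, and names of unplaced sequences are those of mm9, so file positions are given as mm9 and none was converted. The authors deposited FPKM in 1 table in the layout of Cuffdiff, pooled over the 3 samples of each genotype, with HET as wt/fl and KO as fl/fl. Its columns of the authors' own comparison (fold change, test statistic, p-value, q-value, significance and status) were not used. Of 25017 entries, 44 with a symbol that reads as a date were left out. FPKM was summed per gene name, 1 was added, and the log2 ratio was taken. The computation was tested on simulated data. The depth per sample is unknown.

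Genes were named by a rule: Myh9, the members, list genes past 1.5 fold or among the 3 highest of a list, the sort gate genes and the 5 genes nearest to Plac8. Some genes that the rule names are not reported here. Other list genes, the B cell genes and the genomic neighbours were named after their values were seen. The members and lists were chosen with earlier results of these data known. Alternatives were other pseudocounts (0.1 and 0.5), filters, scalings, a 2-fold limit and the largest entry of each gene. Promoters came from RefSeq (GRCm38.p6) and transcripts from GENCODE M21, aligned with Biopython 1.88. Python 3.11.15, pandas 2.3.3 and numpy 2.4.6 were used.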

Additional observations from a re-analysis of the deposited data

How the results depend on the processing

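With 0.1 FPKM added in place of 1, 2 members were lower by at least 1.5 fold, Plac8 and Asb2, and the shares of all genes lower and higher were 2.59% and 1.60%. With a 2-fold limit, 0 members and 0 of the other marginal zone genes were lower, and the shares were 0.405% and 0.0912%. With a mean of at least 5 FPKM, 1 of the other marginal zone genes was lower, since Cd9 was left out, and the shares were 0.867% and 0.336%. With no filter they were 0.974% and 0.519%, and with the largest entry of each gene the share higher was 1.19%. Over the other pseudocounts, scalings and the largest entry, the log2 ratio of Plac8 stayed at −0.74, that of Mzb1 ranged from −0.44 to −0.42, that of Cr2 from 0.12 to 0.16, that of Cd1d1 from 0.05 to 0.06, that of Myof from −0.17 to −0.12 and that of Asb2 from −0.60 to −0.21. Upper quartile scaling and quantile normalization moved none of the 41 results by over 0.1 on the log2 scale or 1.5 times in a count or share.

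No paired analysis was possible because the table holds 1 pooled value per genotype. For the same reason no replicate was left out, and whether a single mouse sets a value was not tested. Depth is unknown, which limits the low genes most.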

Other observations

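The genes next to the members on the chromosome, chosen after the data were seen as the nearest gene with a mean of at least 1 FPKM on each side, gave 11 neighbours at 5.24 to 443 kb. None of the 11 was past 1.5 fold, and their log2 ratios ranged from −0.17 to 0.26. Plac8 (log2 ratio −0.74) lies between Cops4, a subunit of the COP9 signalosome (26.6 FPKM in wt/fl against 25.7 in fl/fl), and Coq2, an enzyme of coenzyme Q synthesis (36.3 and 37.6 FPKM). Mzb1 (−0.43) lies between Paip2, a regulator of translation (136 and 129 FPKM), and Spata24 (6.43 and 7.15 FPKM).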
